A study of Xenopus laevis with 16 samples.

Results

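The effect of adding the Wnt antagonist Dkk-1 to GATA4-GR was examined in Xenopus laevis animal caps, hour by hour. The comparison set the 4 libraries of GATA4-GR+Dkk-1 against the 4 libraries of GATA4-GR, paired at 2.5, 5 and 7.5 h and at 24 h, and so used 8 of the 16 libraries of the series. Animal caps are explants of blastula ectoderm, which is pluripotent and forms epidermis when left alone. GATA4-GR caps came from embryos injected with mRNA for a fusion of GATA4 with the glucocorticoid receptor's hormone-binding domain, and GATA4-GR+Dkk-1 caps came from embryos that also received Dkk-1 mRNA. The fusion protein was switched on with 1 µM dexamethasone (DEX). The other 8 libraries were control caps, which were uninjected, and caps injected with Nodal5 mRNA, at the same hours. RNA was measured once per treatment and hour on pooled caps, and the 5 h libraries of all 4 treatments were marked as resequenced. A difference at 1 hour therefore had no replicate check, and the addition of Dkk-1 cannot be told apart from any difference in the amount of GATA4-GR that these caps received. In pooled caps, fewer cells of a type and less RNA per cell also cannot be told apart.

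GATA4 is a zinc finger transcription factor that binds GATA motifs and activates genes of the endoderm, the heart and other mesodermal derivatives. It can also repress transcription. Dkk-1 is a secreted protein that blocks canonical Wnt signalling by binding its LRP co-receptors, which keeps beta-catenin from accumulating. In vertebrate embryos canonical Wnt signals restrict heart formation during gastrulation, and antagonists such as Dkk-1 favour anterior and cardiac fates. GATA4 with Dkk-1 is accordingly used to push pluripotent ectoderm towards heart muscle, and the question addressed here was how Dkk-1 altered the GATA4 response from the first hours to 24 h.

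Total counts ranged from 11339829 to 16390356 in the GATA4-GR libraries and from 13593026 to 21806176 in the GATA4-GR+Dkk-1 libraries, and at 2.5, 5 and 24 h the library with Dkk-1 was the deeper one. The values were expected counts per gene model, estimated from reads that can match several models, and 47.2% of them were not whole numbers. Xenopus laevis is allotetraploid, so many genes have a second, similar copy, and models that share reads with such a copy have uncertain values. Of 54142 gene models, 30958 passed a filter on low counts and entered every comparison. A single library could admit a model, so counts over all models can include some admitted only by the library where they were high. The model identifiers were not paired with gene names in the sources used here, so the levels of Wnt, cardiac and other marker genes were not looked up and the tissue was not checked against its markers.

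The largest difference of all called models was in Xelaev16022472m.g, a model singled out after its values had been seen. Its expected counts with Dkk-1 were 241652.67 at 2.5 h, then 304509.75 at 5 h, 215806.91 at 7.5 h and finally 80212.77 at 24 h. Without Dkk-1 the GATA4-GR libraries held 198, 52, 499 and 162 counts at the same hours, and the control libraries held 189, 32, 144 and 104. All 4 libraries with Dkk-1 thus stood far above every GATA4-GR and control library, with no overlap. This single model took 1.42%, 1.4%, 1.59% and 0.449% of all counts in the GATA4-GR+Dkk-1 libraries at 2.5, 5 and 7.5 h and at 24 h. In CPM, counts scaled to a common library size, it was 852-fold, 4290-fold, 516-fold and 394-fold higher with Dkk-1 than without at these hours. The Nodal5 libraries held 692, 613, 187 and 6965.19 counts, so that the 24 h Nodal5 library was the next highest of all 16. The log2 fold change shared by the 4 hours was 9.68 (standard error 0.825, adjusted p = 0.0986, edgeR's quasi-likelihood test). This adjusted p lay just inside the threshold of 0.1. It was 0.485, 0.121, 0.424 and 0.0441 without the 2.5, 5, 7.5 or 24 h libraries, while the log2 fold change stayed between 9.13 and 9.97. The adjusted p was 0.329 in edgeR's fit of all 16 libraries and 2.07e-42 by DESeq2's Wald test in the 8 libraries, so it depended strongly on the test. No name was available for the model, and whether it is the Dkk-1 message itself was not tested.

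**Figure D1:**
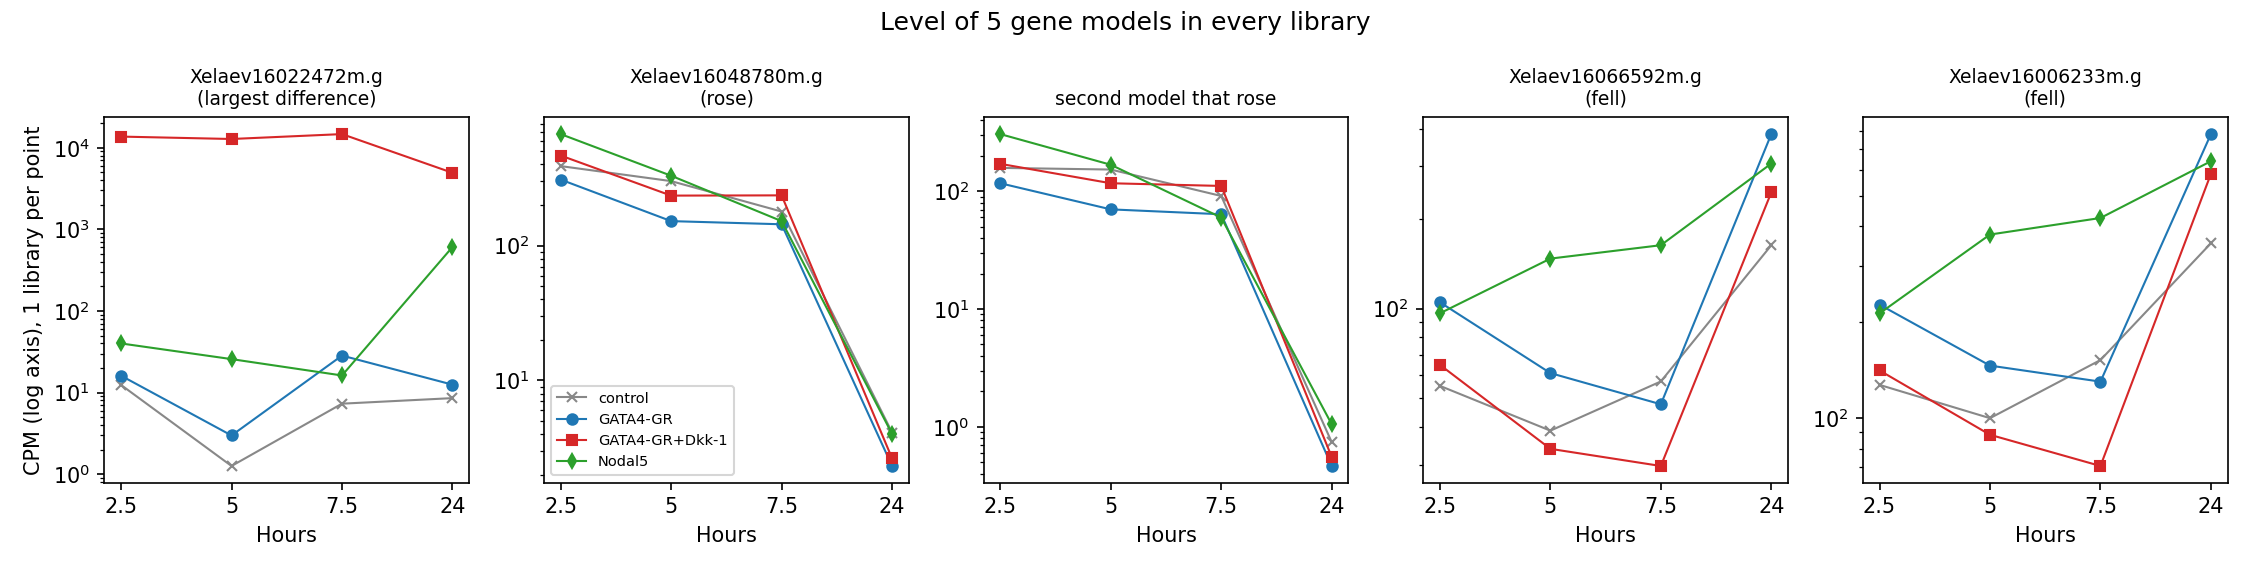
Level of 5 gene models in every library, in CPM on a log axis, against hour (equally spaced, not to scale), with 1 point per library and lines joining the 4 libraries of a treatment. In the first panel the GATA4-GR+Dkk-1 libraries lie 394-fold to 4290-fold above the GATA4-GR libraries, and in the other panels the distance between these treatments is much smaller than the change between 7.5 and 24 h.

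Beyond that model most differences were small. The median absolute log2 difference between GATA4-GR+Dkk-1 and GATA4-GR was 0.221 at 2.5 h, then 0.204 at 5 h, 0.236 at 7.5 h and finally 0.256 at 24 h. A log2 difference of 1 or more, in either direction, was seen in 2101 models (6.79%) at 2.5 h, then 1437 (4.64%) at 5 h, 2215 (7.15%) at 7.5 h and finally 3045 (9.84%) at 24 h. By the same measure GATA4-GR differed from control in 14.3%, 15%, 15.1% and 33.8% of models at these hours. At each hour, fewer models passed this limit between the GATA4 treatments than between GATA4-GR and control.

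The direction of the larger differences changed with the hour. At 2.5 h, 1209 models (3.91%) were higher with Dkk-1 by a log2 of 1 or more and 892 (2.88%) were lower. At 5 h, 635 (2.05%) were higher and 802 (2.59%) were lower. At 7.5 h lower models were in the majority, with 588 (1.9%) higher and 1627 (5.26%) lower. At 24 h higher models were in the majority, with 1837 (5.93%) higher and 1208 (3.9%) lower. With a limit of 2 on the log2 scale, 86 models were higher and 39 lower at 2.5 h, 26 and 15 at 5 h, 27 and 98 at 7.5 h, and 235 and 171 at 24 h.

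Most of these differences were in models with few counts. At 24 h, 25.1% of the 6204 models with a mean of under 10 counts in the 8 libraries passed a log2 of 1, against 1.38% of the 4141 models whose mean was at least 1000. At 5 h these shares were 13.2% and 0.193%. Among the 18107 models whose mean was at least 50 counts, 74 were higher and 152 lower at 2.5 h, 45 and 104 at 5 h, 30 and 332 at 7.5 h, and 383 and 284 at 24 h. At 2.5 h the direction of the majority thus differed between all models and the better counted ones. At 7.5 h the excess of lower models and at 24 h the excess of higher models were present in both. At 7.5 h, unlike at the other hours, the library with Dkk-1 was the shallower one, and the part of depth in these counts was not tested.

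**Figure D2:**
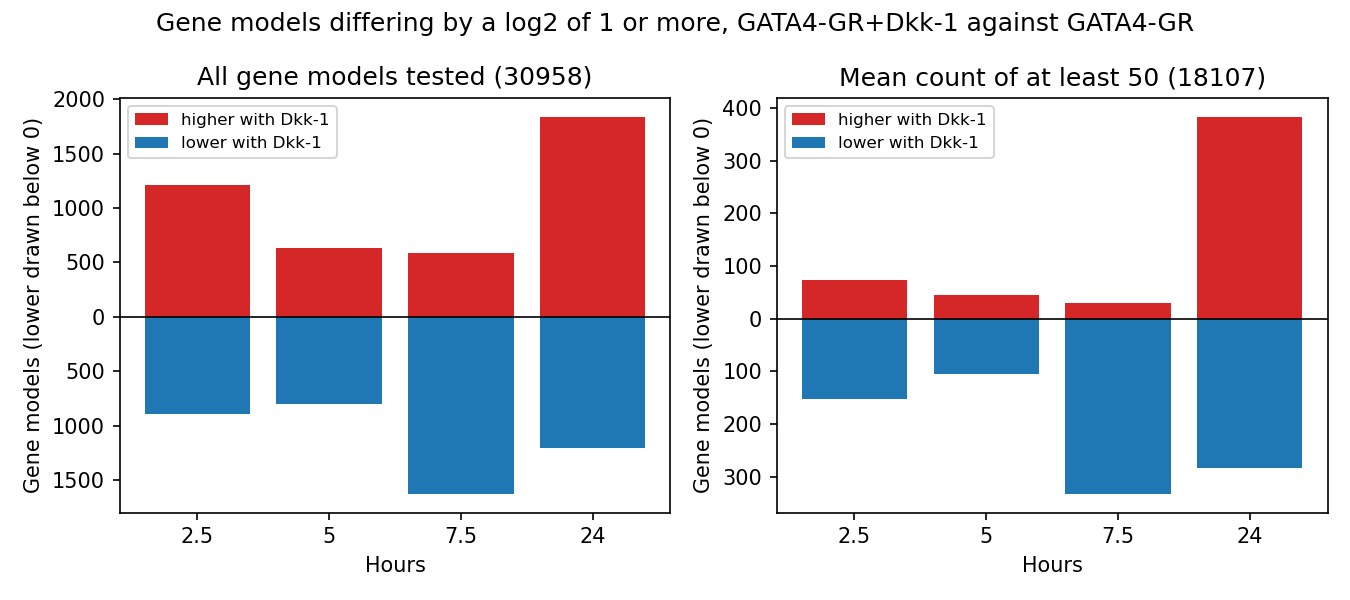
Number of gene models that differed by a log2 of 1 or more between GATA4-GR+Dkk-1 and GATA4-GR at each hour, higher models drawn upwards and lower models downwards, for all models tested (left) and for models whose mean was at least 50 counts (right). The 7.5 h bars are longest downwards (1627 and 332 models) and the 24 h bars are longest upwards (1837 and 383 models).

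The differences of the first 3 hours resembled each other, and those of 24 h resembled none of them. Across the 18107 models whose mean was at least 50 counts, Pearson's correlation of the log2 differences was 0.384 for 2.5 with 5 h, 0.424 for 2.5 with 7.5 h and 0.404 for 5 with 7.5 h. Between 24 h and these hours it was 0.00837, -0.0273 and 0.0143. No pair of hours shares a library, but models are not independent replicates, and the libraries of a pair share the explant type and the treatments. Over all 30958 models the coefficients were 0.11, 0.129 and 0.157 among the early hours and 0.0133, -0.0252 and -0.0205 with 24 h.

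Signs were compared in the same way. Among the better counted models, 66.7% had the same sign at 2.5 and 5 h, 65.8% at 2.5 and 7.5 h and 68.8% at 5 and 7.5 h, against 50.1%, 49.1% and 48.8% between 24 h and the 3 earlier hours. Of the 226 models past a log2 of 1 at 2.5 h, 163 (72.1%) had the same sign at 7.5 h, and of the 362 past it at 7.5 h, 269 (74.3%) had the same sign at 2.5 h. Between 2.5 and 5 h the share was 61.1% whichever hour chose the models, which is below the 66.7% over all better counted models, and between 5 and 7.5 h it was 69.8% and 64.9%. Of the models past a log2 of 1 at an early hour, 54% (2.5 h), 38.3% (5 h) and 56.9% (7.5 h) had the same sign at 24 h. Of the 667 models past it at 24 h, 46.2%, 42.9% and 50.4% had the same sign at 2.5, 5 and 7.5 h. Among the models with larger differences, the contrast between early pairs and pairs with 24 h was therefore smaller for some pairs than for others. In all, 4180 of the 18107 models were lower with Dkk-1 at each of the 3 early hours and 4992 were higher at each of them. At 24 h, 2394 of the former were lower again, while 2117 of the latter were higher again. Over all 18107 models, 56.3% were below 0 at 24 h, so both counts lay near the share over all of these models.

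**Figure D3:**
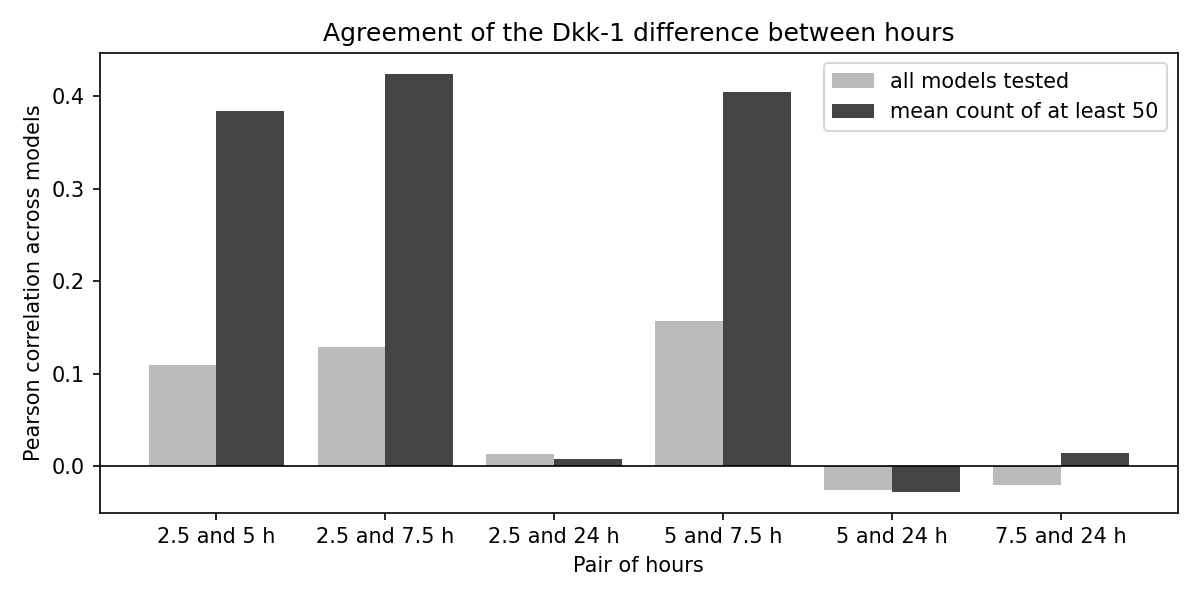
Pearson's correlation of the log2 difference between GATA4-GR+Dkk-1 and GATA4-GR for each pair of hours, across all models tested (light bars) and across models whose mean was at least 50 counts (dark bars). The 3 pairs of early hours reach 0.384 to 0.424 in the dark bars, and the 3 pairs with 24 h lie between -0.0273 and 0.0143.

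Whether Dkk-1 scaled the GATA4 response up or down was examined in models that responded to GATA4. The series holds no library of caps with Dkk-1 alone. An effect of Dkk-1, or of the added mRNA, that does not depend on GATA4 therefore cannot be told apart from a scaled GATA4 response. For each hour, activated models were those whose mean log2 level over both GATA4 treatments was at least 1 above control at each of the other 3 hours, and repressed models were those at least 1 below it. The libraries of the hour described took no part in this choice, except through the filter on low counts, which used all 16 libraries. It gave 996, 666, 688 and 861 activated models for 2.5, 5 and 7.5 h and for 24 h.

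The activated models were lower with Dkk-1 in the median at the first 3 hours and higher at 24 h. The median log2 difference between GATA4-GR and control in these models was 1.51 at 2.5 h, then 2.86 at 5 h, 3.01 at 7.5 h and finally 2.20 at 24 h. With Dkk-1 added, the difference from control was 1.28, 2.51, 2.85 and 2.68. The activated response was thus smaller with Dkk-1, by a median log2 difference of -0.25 at 2.5 h, then -0.33 at 5 h and -0.26 at 7.5 h, and larger by 0.44 at 24 h. These medians correspond to levels of 0.842, 0.796 and 0.837 times those without Dkk-1 at the early hours, and 1.36 times at 24 h. The quartiles of the difference ran from -0.637 to 0.215 at 2.5 h, from -0.632 to 0.00278 at 5 h, from -0.59 to 0.0856 at 7.5 h and from -0.0693 to 0.943 at 24 h.

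The direction held in most activated models but not in all. A value below 0 was found in 64.9%, 74.6% and 68.5% of them at 2.5, 5 and 7.5 h, and in 28.5% at 24 h. Over all models tested these shares were 42%, 49.6%, 53.6% and 52.1%. With Dkk-1, a level lower by a log2 of 1 or more was seen in 95 activated models (9.54%) at 2.5 h, then 64 (9.61%) at 5 h and 66 (9.59%) at 7.5 h, each share above that over all models given earlier. At 24 h, 197 (22.9%) were higher by that much, against 5.93% of all models, and 35 (4.07%) were lower, against 3.9%. At the early hours the activated models that were higher by this measure numbered 47 (4.72%, against 3.91% of all models) at 2.5 h, 16 (2.4% against 2.05%) at 5 h and 12 (1.74% against 1.9%) at 7.5 h. At 2.5 h both directions were thus more frequent among the activated models than over all models.

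The activated models had a median of 72.8 to 111 counts per library, and their direction was the same among the better counted ones. With a mean of at least 50 counts, the median log2 difference was -0.34, -0.36, -0.27 and 0.46 at 2.5, 5 and 7.5 h and at 24 h, in 554, 432, 434 and 538 models. That mean was taken over all 8 libraries of the GATA4 treatments, the hour described included. When only the mean response over the other hours had to pass 1, the median at 2.5 h was nearer to 0, at -0.05.

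The repressed models did not follow the activated ones. There were 516, 458, 443 and 785 of them, and GATA4-GR lay below control by a median log2 difference of -1.50, -1.73, -1.57 and -0.88 at 2.5, 5 and 7.5 h and at 24 h. With Dkk-1 the difference from control was -1.46, -1.71, -2.03 and -0.94. The median log2 difference between the 2 GATA4 treatments was 0.04 at 2.5 h, then 0.13 at 5 h, -0.56 at 7.5 h and finally 0 at 24 h. The value furthest from 0 was that of 7.5 h, where 332 of 443 (74.9%) were lower with Dkk-1. At 5 h the median was positive but depended on the choice of models. It was 0.48 in those at least 2 below control at each of the other hours. When only the mean response over the other hours had to pass 1, it was 0.02. With the 2.5, 7.5 or 24 h libraries left out of the choice, it was 0.03, 0.03 and 0.09. At 7.5 h the median was -0.87 with that stricter limit and -0.29 when only the mean response over the other hours had to pass 1. At 7.5 h, 109 repressed models (24.6%) were lower by a log2 of 1 or more, against 5.26% of all models. Among those with a mean of at least 50 counts, 156 of 172 (90.7%) were lower at 7.5 h, with a median log2 difference of -0.83. At 7.5 h both classes of GATA4-responsive models were therefore lower with Dkk-1, which made the activation smaller and the repression deeper.

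**Figure D4:**
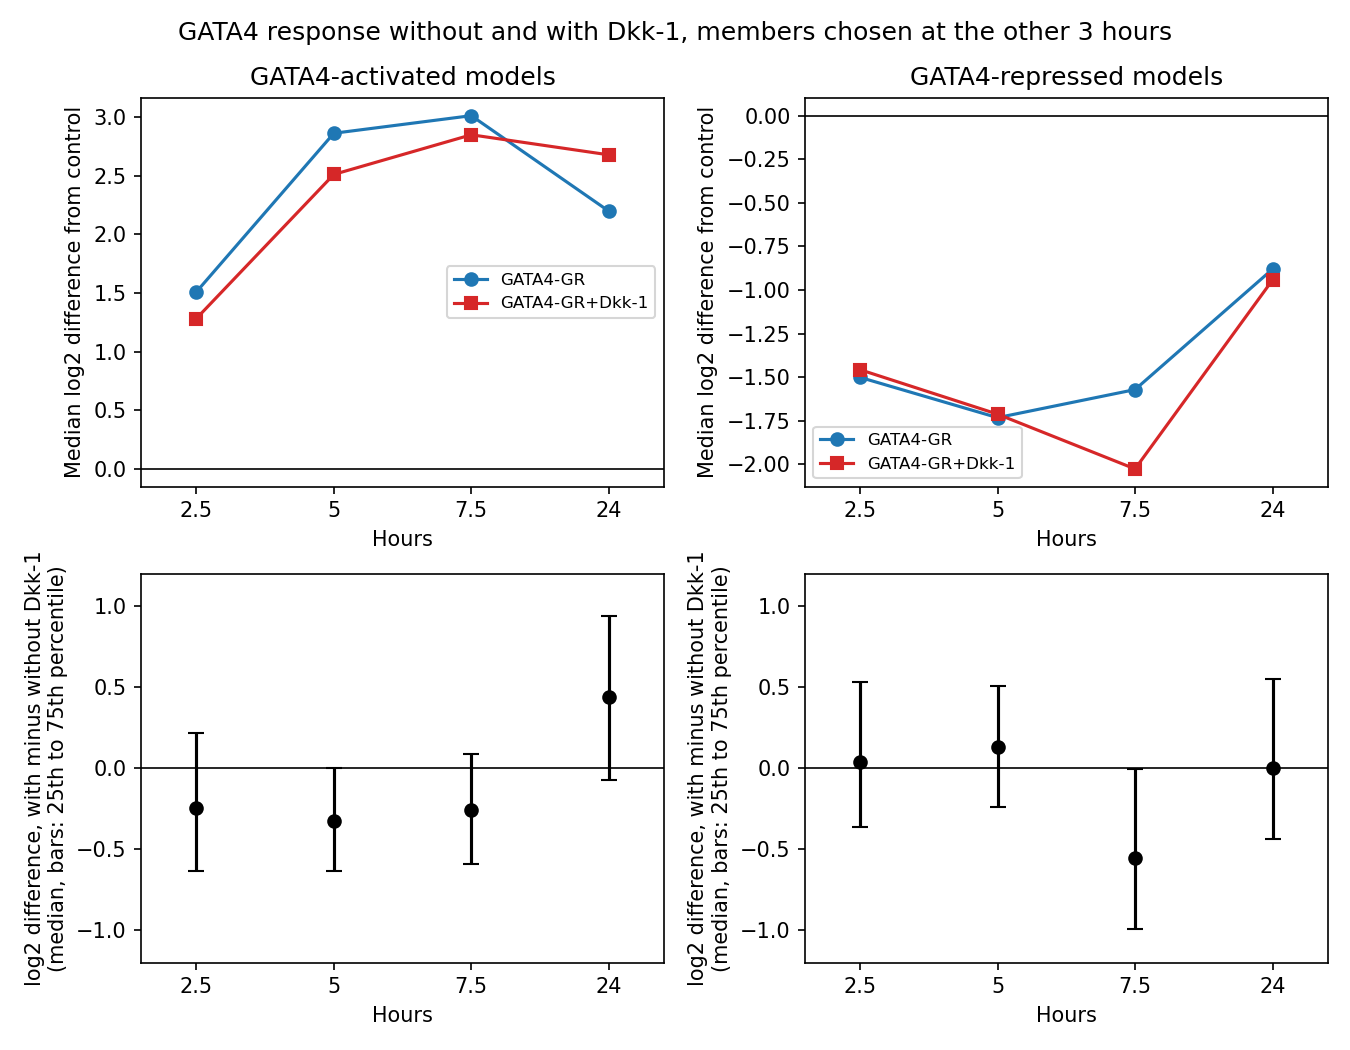
Median log2 difference from control of GATA4-GR and GATA4-GR+Dkk-1 in the upper panels, and the difference between both treatments (median, with bars from the 25th to the 75th percentile) in the lower panels, for GATA4-activated (left) and GATA4-repressed models (right) at each hour, with hours equally spaced. In the activated models Dkk-1 lies below GATA4-GR by medians of 0.25 to 0.33 at the first 3 hours and above it by 0.44 at 24 h, and in the repressed models the 7.5 h difference of -0.56 stands apart.

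The difference was graded with the size of the activation at 2.5, 5 and 24 h, and less clearly so at 7.5 h. Models were divided by their mean log2 response over the other 3 hours. In those with a response of 4 or more, the median log2 difference with Dkk-1 was -0.42 at 2.5 h, then -0.37 at 5 h, -0.26 at 7.5 h and finally 0.78 at 24 h, in 183, 123, 113 and 134 models. With a response of 2 to 4 it was -0.21, -0.34, -0.30 and 0.49, and with a response of 1 to 2 it was 0, -0.13, -0.18 and 0.23. Models with a response between -0.5 and 0.5, which are the large majority, had medians of 0.04, 0, -0.01 and -0.03. At 24 h the median was thus higher at each step of the activation. At 7.5 h the median was lowest in the models most strongly repressed, those below -2, at -0.68. In the same class of models the median at 5 h was 0.28, with 31.2% of 250 models below 0, and it was 0.06 at 2.5 h and 0.11 at 24 h.

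**Figure D5:**
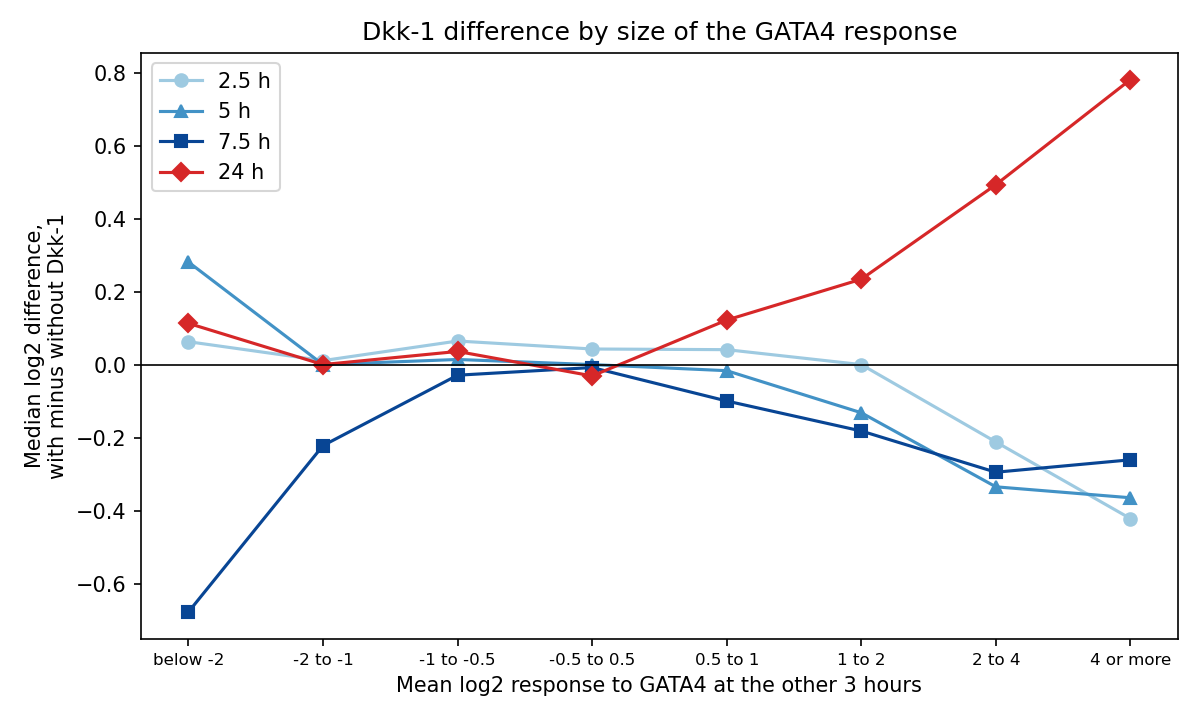
Median log2 difference between GATA4-GR+Dkk-1 and GATA4-GR at each hour, by the mean log2 response to GATA4 at the other 3 hours. At the right end the 24 h line reaches 0.781 while the 3 early lines lie between -0.422 and -0.261, and at the left end the 7.5 h line falls to -0.678.

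Models that changed as the caps aged also differed between the GATA4 treatments, so the change in control caps was set beside these results. The 2901 models that rose by a log2 of 1 or more in control caps from 2.5 to 7.5 h had median log2 differences with Dkk-1 of 0.04 at 2.5 h, then -0.08 at 5 h, -0.28 at 7.5 h and finally 0.15 at 24 h. The 1571 models that fell in control over that interval had medians of 0.26, 0.18, 0.17 and 0. At 7.5 h the rising models were therefore lower and the falling models higher with Dkk-1. Among GATA4-activated models whose control level moved by a log2 of less than 0.5 from 2.5 to 7.5 h, and for 24 h also from 7.5 to 24 h, the median differences were -0.24, -0.32, -0.22 and 0.35, in 421, 252, 253 and 78 models. In repressed models chosen in that way, the median at 7.5 h was -0.48, in 158 models. In models with a steady control level, the direction was thus kept in the activated class at every hour and in the repressed class at 7.5 h. At 24 h the 47 steady repressed models had a median of -0.06, against 0 in the whole repressed class. The steady activated models had low median control levels of -1.67, -1.58, -1.64 and -2.31 log2 CPM, in the order of the hours. At such levels a steady value can reflect few counts, so the part of ageing in these differences was not tested.

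Models that responded to Nodal5 differed in part in the same way. Nodal5 is a TGF-beta family ligand that induces mesoderm and endoderm in animal caps. The models activated by Nodal5 at the other 3 hours had median log2 differences with Dkk-1 of 0, -0.13, -0.23 and 0.24 at 2.5, 5 and 7.5 h and at 24 h, in 738, 413, 419 and 530 models. Of the 530 at 24 h, 123 (23.2%) were higher with Dkk-1 by a log2 of 1 or more and 40 (7.55%) lower. Over all models these shares were 5.93% and 3.9%, so both directions were more frequent among the 530. Among GATA4-activated models they were 22.9% and 4.07%. The 530 models had a median of 14.9 counts per library, against 99.1 in the GATA4-activated models of 24 h. The part of low counts in these shares was not tested. The 530 models were also higher with GATA4-GR than in control at 24 h, by a median log2 difference of 0.74, and overlap of the classes was not counted. The 365 models repressed by Nodal5 had a median of -0.62 at 7.5 h, and 81.9% of them were lower with Dkk-1, against 53.6% of all models. These models were also lower with GATA4-GR than in control, by a median log2 difference of -0.89 at 7.5 h. Their overlap with the GATA4-repressed class was not counted either.

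A difference shared by all 4 hours was tested in the 8 libraries with hour as a block, which takes the variation of the difference between hours as its error and leaves 3 residual degrees of freedom. At an adjusted p under 0.1, edgeR's quasi-likelihood test called 305 models, 133 higher with Dkk-1 (0.43%) and 172 lower (0.556%). Of these, 283 had the same sign at all 4 hours, which a test of a shared difference favours. Over all 30958 models, 3162 were lower and 2890 higher at all 4 hours. The median absolute log2 fold change of the 305 models was 0.46, and 31 reached 1. The calls depended on the libraries in the fit. With all 16 libraries, edgeR called 0 models, with 664 at an unadjusted p under 0.05. Its coefficient of variation was 0.301, against 0.116 in the 8 libraries, where DESeq2 called 651. The fit of all 16 libraries gives every treatment the same change over time, so differing courses of control and Nodal5 also enter its error. Their part in the 0 calls was not tested. Without the 2.5, 5 or 7.5 h libraries, 5, 85 and 3 models were called, and without the 24 h libraries 4144.

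The 4 models given here had the smallest p-values in either direction among called models whose mean was at least 100 counts and the same sign at all 4 hours. Xelaev16066592m.g was at 105, 60.8, 47.8 and 384 CPM in GATA4-GR at 2.5, 5 and 7.5 h and at 24 h, and at 64.8, 33.9, 29.7 and 245 CPM with Dkk-1. It was lower with Dkk-1 at every hour, with a shared log2 fold change of -0.71 (standard error 0.056, adjusted p = 0.00361, edgeR). In control it was at 55.1, 39, 57 and 163 CPM, so that the level with Dkk-1 was nearer to control than that without at 2.5, 5 and 24 h.

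Xelaev16006233m.g followed a similar course, at 227, 146, 130 and 780 CPM in GATA4-GR and at 141, 88.5, 70.6 and 585 CPM with Dkk-1. Its shared log2 fold change was -0.66 (standard error 0.0642, adjusted p = 0.01, edgeR). Both models fell from 2.5 to 7.5 h in the GATA4 treatments and were highest at 24 h. The identifiers do not tell whether they are copies of 1 gene that share reads.

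Xelaev16048780m.g was at 309, 152, 144 and 2.32 CPM in GATA4-GR and at 466, 235, 236 and 2.64 CPM with Dkk-1. It was higher with Dkk-1 at every hour, with a shared log2 fold change of 0.63 (standard error 0.0669, adjusted p = 0.01, edgeR), and in control it was at 389, 301, 179 and 4.11 CPM. At 24 h it had only 30 counts in GATA4-GR and 43 with Dkk-1, and its log2 difference at that hour was 0.18. The other model that rose went from 117, 70.2, 63.8 and 0.464 CPM to 171, 117, 111 and 0.554 CPM, with a shared log2 fold change of 0.71 (standard error 0.0767, adjusted p = 0.01, edgeR). The 24 h libraries held only 6 and 9 counts of it, so its value rests on the early hours. None of the 4 models was called in the fit of all 16 libraries (adjusted p = 1 for each). Without the 2.5 h libraries the adjusted p rose to 0.142 in Xelaev16006233m.g, 0.219 in Xelaev16048780m.g and 0.206 in the other model that rose. Without the 7.5 h libraries it rose to 0.117 and 0.12 in the models that rose. Xelaev16066592m.g was below the threshold whichever hour was left out.

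In the 6 libraries of 2.5 to 7.5 h alone, edgeR called 4144 models, 2685 higher with Dkk-1 (8.67%) and 1459 lower (4.71%), of which 272 were among the 305 called over 4 hours. This fit has 2 residual degrees of freedom and a coefficient of variation of 0.0619. DESeq2 called 1732 models in these libraries. In all 12 libraries of these hours edgeR called 0, with 2885 at an unadjusted p under 0.05. There too, differing courses of control and Nodal5 enter the error, and their part was not tested. The changes called in the 6 libraries were small, with a median absolute log2 fold change of 0.33. At 24 h they did not persist as a group. The 2685 models higher at the early hours had a median log2 difference of -0.05 at 24 h, where 42.9% of them were above 0. The 1459 lower models had a median of -0.01 there, and 52.2% were below 0. At that hour 52.1% of all models tested were below 0, as were 56.3% of those whose mean was at least 50 counts. Both groups thus lay near the share over all models.

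Among the 861 models activated by GATA4 at each of the 3 early hours, 199 (23.1%) were called lower with Dkk-1 and 11 (1.28%) higher over these hours, against 4.71% and 8.67% of all models. The choice of these models used the mean of both GATA4 treatments, in which the difference between them cancels only in part, and control libraries that the fit did not use. Among the 785 models repressed at the early hours, 24 (3.06%) were called lower and 10 (1.27%) higher. Over all 4 hours, 11 of the 861 activated models (1.28%) were called lower and 1 (0.116%) higher, against 0.556% and 0.43% of all models. Of the 785 repressed models, 10 (1.27%) were called lower and 0 higher over 4 hours, so the share of lower calls was not particular to the activated models.

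The difference at 24 h was also tested directly against that of the earlier hours, as an interaction in the 8 libraries with 2 residual degrees of freedom. The library pair at 24 h is fitted exactly, so the error of this test comes from the early libraries alone. The spread between libraries at 24 h was not measured, and a deviation of either 24 h library cannot be told apart from an effect of Dkk-1. edgeR called 2541 models, with the Dkk-1 difference higher at 24 h than before in 919 (2.97%) and lower in 1622 (5.24%). In 2165 of them the 24 h difference had the opposite sign to the mean of the early ones. The test picks models whose 24 h difference departs from the early ones, which favours opposite signs, so this count is no separate result. Of the 861 models activated at the early hours, 262 (30.4%) had a higher difference at 24 h and 24 (2.79%) a lower one. The early GATA4 libraries that chose these models also enter the test, so the choice and the test are not independent. With all 16 libraries, 108 of the 30958 models were called, 40 with a higher and 68 with a lower difference at 24 h. Among them were 21 of the 861 activated models (2.44%) with a higher difference and 2 (0.232%) with a lower one.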

How the data were processed

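The deposited table held expected counts, which the authors estimated per gene model with RSEM after aligning reads with Bowtie to the JGI v7.2 models. Versions were not given in the sources used here. The counts were not normalised. They were rounded, and 30958 of 54142 models passed edgeR's filterByExpr (minimum count 10, with the 16 treatment and hour groups). Each group is 1 library, so a single library could admit a model. Libraries were scaled by TMM. Levels and differences at 1 hour were log2 CPM with a prior count of 2, without a test. Tests were edgeR 4.0.16's quasi-likelihood test with robust dispersions in R 4.3.3 and, as an alternative, DESeq2 1.42.0, with Benjamini-Hochberg adjustment and a threshold of 0.1. Nothing states that hours came from separate injections, so p-values measure the spread between these libraries. The comparison, model classes and tests were chosen with earlier results of these data known. The 2.5 to 7.5 h fit, the steady-control classes and the non-robust dispersions were added after seeing the data. None of the identifiers matched the gene name table (0), so planned gene lists were not run. Named models were the 2 risers and 2 fallers with the smallest p-values among calls with a mean of at least 100 counts and 1 sign. The second riser is given without its identifier because the model with the largest difference was added.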

Additional observations from a re-analysis of the deposited data

Results flagged for a closer look

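The difference between GATA4-GR+Dkk-1 and GATA4-GR at 24 h departed from that at 2.5 to 7.5 h in 2541 gene models by edgeR's test of the interaction, which compared the differences themselves at an adjusted p under 0.1. The library pair at 24 h is 1 against 1 and is fitted exactly, so the error of this test comes from the early libraries alone. The number was 108 in the fit of all 16 libraries, where early control and Nodal5 libraries also enter the error. Neither fit measures the spread at 24 h. Among the 861 models activated at the early hours, 262 (30.4%) had a higher difference at 24 h and 24 (2.79%) a lower one, against 2.97% and 5.24% of all models. The early GATA4 libraries that chose these models also enter the test. The TMM factors of both 24 h libraries (0.867 and 0.912) were below those of the early libraries. With median-of-ratios size factors in place of TMM, 2691 models were called, 987 with a higher and 1704 with a lower difference at 24 h. The part of scaling in the result was not otherwise tested.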

How the results depend on the processing

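The size of the difference at 1 hour depended on how low counts were treated. With a prior count of 0.5, 4025, 3212 and 3839 models passed a log2 of 1 at 2.5, 5 and 7.5 h, and with a prior count of 5 there were 679, 415, 942 and 1753 at 2.5, 5 and 7.5 h and at 24 h. With no low-count filter there were 3468, 2721, 3881 and 5750, and with a mean of at least 50 counts, scaled anew, 226, 145, 347 and 664. The median correlation among the early hours, 0.129, was 0.0579 and 0.201 with prior counts of 0.5 and 5, 0.0764 without a filter, 0.404 at a mean of at least 50 counts and 0.2 by Spearman, and that with 24 h moved from -0.0205 to 0.00829 at a mean of at least 50 counts. The causes were not tested. The median differences of activated models kept their direction under all 13 alternatives at each hour, but at 2.5 h the median was -0.0548, in place of -0.248, when only the mean response over the other hours had to pass 1. At 5 and 24 h that choice gave -0.212 and 0.352. Leaving out 1 of the hours that chose them gave -0.194 to -0.189 at 2.5 h, -0.316 to -0.253 at 5 h, -0.281 to -0.218 at 7.5 h and 0.377 to 0.408 at 24 h. In repressed models the 5 h median of 0.131 was 0.475 with a response of at least 2 and 0.0196 with the mean response. The 7.5 h median of -0.556 was -0.867 with a response of at least 2 and -0.29 with the mean response. The causes of these shifts were not tested.

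The 305 shared calls became 651 with DESeq2, 1265 without a filter, 110 at a mean of at least 50 counts, 146 without robust dispersions and 78 at an adjusted p under 0.05. edgeR called 0 with all 16 libraries (664 at an unadjusted p under 0.05), where differing time courses of control and Nodal5 enter the error. It also called 0 without the hour block (50 at an unadjusted p under 0.05), where the change with time enters the error. The part of either in these counts was not tested. Leaving out 1 hour gave 3 to 4144. The 4144 calls of 2.5 to 7.5 h became 1732 with DESeq2 and 0 with 12 libraries, and 3058 to 3372 without 1 hour. The 2541 calls of 24 h against earlier hours became 108 with 16 libraries, and 2325 to 2759 without 1 early hour. No paired analysis by replicate number was possible because each treatment and hour has 1 library. Depth limits the models of low count, and the spread between injections was not measured.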
